A study of Mus musculus with 12 samples.

Results

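The 10 genes described here encode the proteins that start a round of the cell cycle or hold it back: the D-type cyclins Ccnd1, Ccnd2 and Ccnd3, their kinases Cdk4 and Cdk6, cyclin E1 (Ccne1), and the kinase inhibitors Cdkn1a (p21), Cdkn1b (p27), Cdkn2c (p18) and Cdkn2d (p19). They were taken by gene symbol from a table of 17210 genes, by a rule that holds no measured value but was written with earlier results of these data known, and all 10 were among the 11177 genes that passed the filter on low counts. RNA came from G1E-ER4 cells, a mouse erythroid progenitor line without GATA1 of its own that carries a fusion of GATA1 with the ligand-binding domain of the estrogen receptor, whose GATA1 activity starts when β-estradiol (EST) is added. The cells had been transduced for 24 h with retrovirus and then given EST or not for 6 h. The 4 groups had 3 poly(A) RNA libraries each, 12 in all. Vector cells carried the empty virus and got no EST, Vector+EST cells carried the empty virus and got EST, SREBP2 cells carried active SREBP2 (residues 1 to 468) without EST, and SREBP2+EST cells got both. SREBP2 is the transcription factor of cholesterol synthesis. All groups share the GATA1 fusion, the viral transduction and a medium with stem cell factor and erythropoietin. The EST dose is 500 nM in the sample protocol and the methods of the study, and 200 nM in the series design text. The line comes from C57BL/6J cells per the labels, and everything below is from this line alone. The labels do not say whether the 3 libraries of a group came from separate cultures, and the legends of the study speak of independent experiments without tying them to these libraries, so p-values measure only the spread between these libraries, which may be technical.

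The D-type cyclins bind CDK4 or CDK6 in response to growth factors, and these kinases phosphorylate the retinoblastoma (RB) proteins, which releases E2F factors to transcribe genes for DNA synthesis. Cyclin E with CDK2 completes the step into S phase. Proteins of the INK4 family, which include p18 and p19, bind CDK4 and CDK6 and keep the D-type cyclins away, while p21 and p27 of the Cip/Kip family bind cyclin and kinase together and block CDK2. In the erythroid lineage, progenitors divide rapidly and leave the cycle as they mature, and p27 and p18 are known to accumulate on the way.

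Totals ran from 18700893 to 19152254 estimated counts per library, and 3 counts, taken as the floor of detection, came to between 0.153 and 0.163 CPM (counts per library, scaled to a common library size). The labelled cell type is embryonic stem cell, but Pou5f1, Zfp42 and Tdgf1 were not in the table, and the other 4 of 7 stem cell markers summed to at most 0.650 CPM. All 10 erythroid markers exceeded 1 CPM and summed to between 6405 and 10286 CPM, highest in the 3 Vector libraries. That sum is mostly globin and Gata1 reads, and the members went both ways, with 3 higher (Alas2, Tfrc and Klf1) and 6 lower with EST in Vector cells. Alas2, the first enzyme of heme synthesis in red cells, was 51.96 to 52.3 CPM in Vector and 129.8 to 186 CPM in the other 9 libraries. Srebf2 reads, which hold the introduced fragment where it maps, lay between 797 and 837 CPM in the 6 libraries with added SREBP2 and between 355 and 456 CPM in the other 6. Col1a1, a collagen gene of stromal cells, stood between 6.50 and 13.8 CPM in Vector+EST library 5 and all 3 SREBP2+EST libraries and at or under 0.0542 CPM in the other 8. The 10 stroma markers, 6 of which averaged over 1 CPM, summed to 20.7 to 21.5 CPM in Vector, 6.17 to 36.7 in Vector+EST, 10.01 to 15.98 in SREBP2 and 23.8 to 40.5 in SREBP2+EST, and here too single markers moved in opposite directions. Col1a2, which made up most of the Vector sum, was 18.9 to 19.9 CPM in Vector and 3.87 to 7.97 CPM elsewhere. Pdgfrb, a growth factor receptor of stromal cells, was at most 0.159 CPM in the 6 empty-virus libraries and 4.61 to 9.15 CPM in the 6 libraries with added SREBP2. Thy1 went opposite to Col1a1, with at most 0.0539 CPM in the 4 libraries that held Col1a1 and 0.868 to 2.87 CPM in the other 8. The megakaryocyte markers summed to 39.1 to 43.4 CPM in Vector, 11.5 to 12.8 in Vector+EST and 46.5 to 61.8 in the SREBP2 groups, a sum in which single markers moved in opposite directions. Pf4 was 8.91 to 10.1 CPM in Vector, 5.72 to 6.59 in Vector+EST and 38.8 to 52.9 in the SREBP2 groups, while Itga2b was 26.3 to 29.4 CPM in Vector and at most 7.97 in the other 9 libraries. Myeloid and mast cell markers reached at most 12.6 CPM and neural markers at most 10.9 CPM, both highest in Vector. The part of these transcripts in the results was not tested. In bulk RNA, fewer cells of a kind and less RNA per cell cannot be told apart.

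Library numbers are those of the column names in the deposited counts and differ from the replicate numbers in the titles. SREBP2 library 1 and SREBP2+EST library 1 stood apart from their groups. The mean chi-square of a replicate pair, expected to be 1 under counting error alone, was 8.43 and 11.1 between SREBP2 library 1 and its partners and 6.25 and 6.32 between SREBP2+EST library 1 and its partners, against 1.86 to 3.37 for all other pairs within a group. For 8 of the 10 genes, SREBP2 library 1 lay nearer the mean of SREBP2+EST libraries 2 and 5 than the mean of SREBP2 libraries 3 and 5, as it did for 61.9% of all tested genes. The reverse held for SREBP2+EST library 1, also for 8 of the 10 genes and for 62.7% of all tested genes. Some stroma markers sided with the labels. Col1a1 was 0.0530 CPM in SREBP2 library 1 and 6.50 CPM in SREBP2+EST library 1. In the same order Fn1 was 0 and 3.14 CPM, Igfbp7 0.0530 and 2.76 CPM and Thy1 1.38 and 0 CPM. Each was near the other libraries of its own group. Pdgfrb sided the other way. It was 8.45 and 8.30 CPM in SREBP2 libraries 3 and 5 but 4.61 in library 1. In SREBP2+EST it was 5.33 and 5.01 CPM in libraries 2 and 5 but 9.15 in library 1. Whether SREBP2 library 1 and SREBP2+EST library 1 were exchanged with each other is not given in the labels. An exchange would change what every value of the SREBP2 and SREBP2+EST groups stands for. The labelled groups were kept, and the calls in comparisons that use a SREBP2 group are given with and without both libraries. Since these libraries were singled out by their values, leaving them out moves the SREBP2 and SREBP2+EST groups apart by construction.

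Per kilobase of the longest RefSeq-linked transcript, the leading genes in Vector cells were Ccnd3 at 254 and Cdk4 at 247 CPM per kb, and the libraries of these genes overlapped. Then came Cdkn1a at 123, Ccnd2 at 87.8, Ccne1 at 58.1, Cdkn2c at 27.4 and Cdk6 at 18.9, all with ranges apart from their neighbours. Cdkn1b (11.4) and Cdkn2d (9.75) followed with overlapping ranges, and Ccnd1 was last at 0.365 CPM per kb. With EST in Vector cells, Ccne1 at 132 CPM per kb had moved above Cdkn1a at 71.4, and Cdkn2c (59.5) and Cdkn1b (49.3) above Ccnd2 (26.3). These transcript lengths run from 1.42 kb for Cdkn2d to 11.5 kb for Cdk6, so the order depends on which isoforms the cells use, which was not measured. Comparisons of a gene with itself do not depend on length. Exons of Ccnd1, Ccnd2, Ccnd3, Cdk4, Cdk6 and Cdkn1a overlap exons of other genes on the opposite strand, and whether strand was used in counting is not given in the sources used here, so reads of such pairs may not have been told apart.

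Ccnd2 (Entrez 12444, chr6:127125162-127152188, GRCm38, minus strand) encodes cyclin D2, a growth factor-responsive partner of CDK4 and CDK6. Its level was 549, 548 and 570.3 CPM in the Vector libraries, 168, 161 and 171 with EST, 156, 211 and 209 with SREBP2, and 215, 161 and 172 with both. Every library with EST, SREBP2 or both lay far under the lowest Vector library, and the 3 lower groups overlapped. EST lowered it 3.34-fold in Vector cells (log2 fold change -1.74 ± 0.10, SE; edgeR quasi-likelihood adjusted p = 2.68e-10), and SREBP2 lowered it 2.89-fold without EST (-1.53 ± 0.10, adjusted p = 1.04e-09).

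Ccnd3 (Entrez 12445, chr17:47505051-47599689, plus strand) encodes cyclin D3, the D-type cyclin that prevails in maturing erythroblasts. It stood at 539, 527 and 545 CPM in Vector, 324, 308 and 369 in Vector+EST, 286, 348 and 365 in SREBP2, and 310.5, 307 and 373 in SREBP2+EST. The Vector libraries lay above the other 9, among which no group was separate. The falls were 1.61-fold with EST (log2 fold change -0.69 ± 0.09, adjusted p = 2.60e-06) and 1.61-fold with SREBP2 (-0.69 ± 0.09, adjusted p = 2.43e-06). Ccnd1 (Entrez 12443, chr7:144929931-144939831, minus strand), the remaining D-type cyclin, was nearly absent, with 17 to 32 counts per library. Its 3 SREBP2 libraries (0.921 to 0.954 CPM) lay under the 3 Vector libraries (1.23 to 1.63 CPM), but the difference of -0.55 ± 0.24 missed the threshold (adjusted p = 0.0539). EST in Vector cells gave Ccnd1 a log2 fold change of -0.14 ± 0.23 (adjusted p = 0.600).

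Cdk4 (Entrez 12567, chr10:127063535-127067288, plus strand) and Cdk6 (Entrez 12571, chr5:3341004-3531008, plus strand) encode the kinases of the D-type cyclins. Cdk4 measured 516, 500.2 and 503 CPM in Vector, 390.1, 377 and 384 in Vector+EST, 333, 359.6 and 370.4 in SREBP2, and 367, 351 and 345 in SREBP2+EST. All Vector libraries were higher than the other 9, and all Vector+EST libraries were higher than those of both SREBP2 groups. It fell 1.32-fold with EST (log2 fold change -0.40 ± 0.04, adjusted p = 1.87e-07) and 1.43-fold with SREBP2 (-0.51 ± 0.04, adjusted p = 8.37e-09). Cdk6 measured 210.1, 207 and 236 CPM in Vector, 111, 118 and 114 in Vector+EST, 89.7, 119.7 and 122 in SREBP2, and 124, 106 and 101 in SREBP2+EST. Here the 3 lower groups overlapped. Cdk6 dropped 1.90-fold with EST (-0.93 ± 0.09, adjusted p = 2.28e-07) and 1.97-fold with SREBP2 (-0.98 ± 0.10, adjusted p = 1.17e-07), more than Cdk4 in both.

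The start regions of these kinases are shown because both fell in every treated group and both hold the E-box CACGTG, a motif that reads the same on both strands and is known as a binding sequence of MYC and related factors. The windows run from 250 bases before to 50 bases after a RefSeq transcript start (GRCm38.p6), 5′ to 3′ on the strand of the gene, with CACGTG in capitals.
Cdk4, chr10:127063285-127063584: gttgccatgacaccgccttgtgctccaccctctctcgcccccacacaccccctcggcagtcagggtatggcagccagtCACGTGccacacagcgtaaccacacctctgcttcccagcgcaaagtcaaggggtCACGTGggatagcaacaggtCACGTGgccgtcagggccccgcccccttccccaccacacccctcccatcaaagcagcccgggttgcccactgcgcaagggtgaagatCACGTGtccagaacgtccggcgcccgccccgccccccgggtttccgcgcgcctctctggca
Cdk6, chr5:3343643-3343942: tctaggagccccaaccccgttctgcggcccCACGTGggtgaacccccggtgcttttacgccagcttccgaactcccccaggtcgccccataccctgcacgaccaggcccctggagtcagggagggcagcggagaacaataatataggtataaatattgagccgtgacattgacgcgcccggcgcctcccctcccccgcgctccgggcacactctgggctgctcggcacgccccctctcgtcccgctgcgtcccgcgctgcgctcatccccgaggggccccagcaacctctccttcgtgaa
The Cdk4 window held 4 copies, which begin at -172, -118, -98 and -11 from the start, where position 1 is the first transcribed base. The Cdk6 start lies inside the annotated gene, and its window held 1 copy, at -220. Of all 32851 such windows in the mouse table, 7.15% held at least 1 copy, and 8 windows (0.0244%) held 4 or more. A match describes letters only, and no binding was measured here.

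Ccne1 (Entrez 12447, chr7:38097984-38107490, minus strand), cyclin E1, is the partner of CDK2 at entry into S phase. It rose from 116, 117 and 116 CPM in Vector to 268, 252 and 274 with EST, 204, 224 and 238 with SREBP2, and 235, 223 and 244 with both. All treated libraries exceeded all Vector libraries, and the Vector+EST libraries were the highest of all 12. The rise was 2.28-fold with EST (log2 fold change 1.19 ± 0.05, adjusted p = 1.03e-11) and 1.91-fold with SREBP2 (0.93 ± 0.05, adjusted p = 1.79e-10).

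The Cip/Kip inhibitors moved in opposite directions. Cdkn1b (Entrez 12576, chr6:134920401-134925525, plus strand) stood at 30.3, 27.2 and 24.3 CPM in Vector, 114, 119.8 and 120.4 in Vector+EST, 132, 108 and 113 in SREBP2, and 107, 128 and 127 in SREBP2+EST. No Vector library came near the other groups, which overlapped. The increase was 4.33-fold with EST (log2 fold change 2.11 ± 0.09, adjusted p = 5.32e-12) and 4.32-fold with SREBP2 (2.11 ± 0.09, adjusted p = 4.31e-12), and no other gene of the 10 changed by as many log2 units in either comparison. Cdkn1a (Entrez 12575, chr17:29090979-29100722, plus strand) instead stood at 240.1, 228 and 236 CPM in Vector, 134, 132 and 143 in Vector+EST, 137, 162 and 179 in SREBP2, and 168, 139 and 150.0 in SREBP2+EST. It fell 1.72-fold with EST (-0.78 ± 0.08, adjusted p = 2.10e-07) and 1.47-fold with SREBP2 (-0.56 ± 0.08, adjusted p = 8.72e-06).

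The INK4 inhibitors both rose. Cdkn2c (Entrez 12580, chr4:109660876-109666756, minus strand) read 66.5, 68.9 and 67.5 CPM in Vector, 142, 156 and 143 in Vector+EST, 138, 116 and 108 in SREBP2, and 114, 144 and 130.2 in SREBP2+EST. Cdkn2d (Entrez 12581, chr9:21288459-21291421, minus strand) read 12.9, 15.2 and 13.5 CPM in Vector, 35.1, 35.0 and 38.4 in Vector+EST, 36.6, 25.5 and 29.2 in SREBP2, and 26.7, 39.7 and 36.9 in SREBP2+EST. For both genes the Vector libraries were the lowest, and the library numbered 1 was the highest of SREBP2 and the lowest of SREBP2+EST. With EST, Cdkn2c rose 2.17-fold (log2 fold change 1.12 ± 0.09, adjusted p = 7.58e-09) and Cdkn2d 2.60-fold (1.38 ± 0.14, adjusted p = 2.55e-07). With SREBP2, the rises were 1.78-fold for Cdkn2c (0.83 ± 0.09, adjusted p = 2.64e-07) and 2.19-fold for Cdkn2d (1.13 ± 0.15, adjusted p = 3.02e-06).

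The windows of the inhibitors with the widest change and with an E2F match are given for the same reason as those of the kinases, to show which letters stand at annotated starts of genes that rose; which start the cells used was not measured.
Cdkn1b, chr6:134920151-134920450: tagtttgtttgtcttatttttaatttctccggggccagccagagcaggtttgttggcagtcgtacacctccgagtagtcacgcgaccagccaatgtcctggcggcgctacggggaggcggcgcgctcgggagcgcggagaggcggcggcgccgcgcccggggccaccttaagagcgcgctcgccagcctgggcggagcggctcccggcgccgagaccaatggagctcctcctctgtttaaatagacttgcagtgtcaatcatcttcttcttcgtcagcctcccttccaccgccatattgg
Cdkn2c, chr4:109666707-109667006, minus strand: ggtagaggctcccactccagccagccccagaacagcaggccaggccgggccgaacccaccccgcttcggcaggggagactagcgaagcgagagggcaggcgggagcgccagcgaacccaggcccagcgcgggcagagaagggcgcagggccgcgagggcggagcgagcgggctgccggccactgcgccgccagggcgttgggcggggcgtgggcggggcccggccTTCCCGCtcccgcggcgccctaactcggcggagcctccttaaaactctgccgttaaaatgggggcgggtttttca
The search covered CACGTG and the letters of E2F and GATA factors on both strands. For E2F they were TTCCCGC as well as TTGGCGC as well as TTGCCGC as well as TTCGCGC. For GATA they were AGATAA as well as AGATAG as well as TGATAA as well as TGATAG. Cdkn1b held none of them, and Cdkn2c held 1 E2F match, in capitals, at -25. E2F letters occurred in 9.57% of all windows and in 16.7% of those of tested genes, and GATA letters in 29.8% and 19.8%. For CACGTG the share was 9.96% in windows of tested genes. RefSeq gave 11 windows for 8 of the 10 genes. Among the windows not printed, the upstream start of Cdkn1a held 1 GATA match, at -195, and a downstream start of Cdkn2c held 1 CACGTG, at 35, while those of Ccnd3, Ccne1 and Cdkn2d and the second start of Cdkn1a held no match. Ccnd1 and Ccnd2 had no entry.

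**Figure D1:**
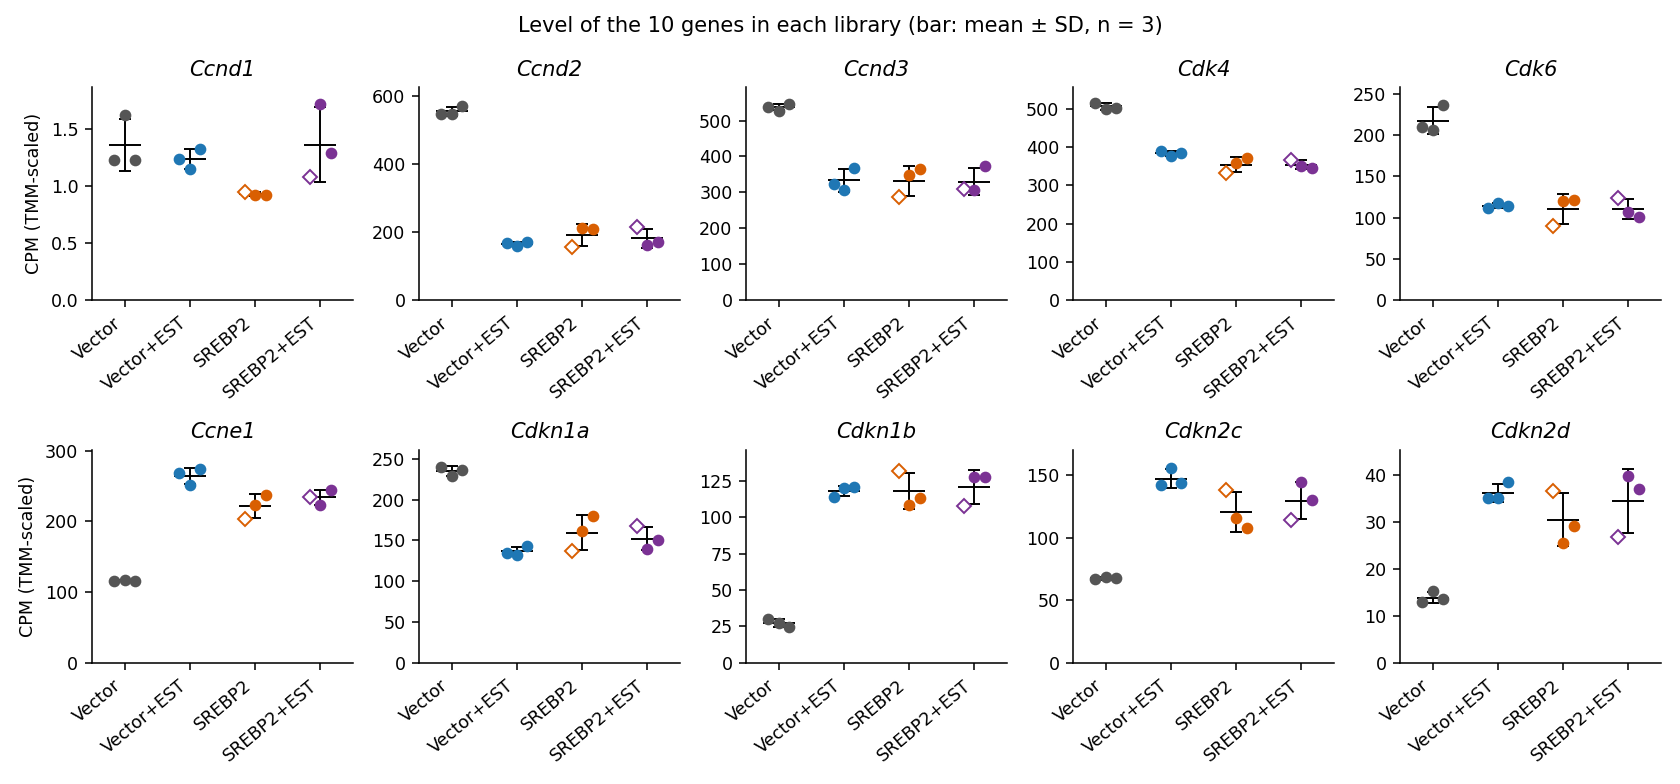
Level of each of the 10 genes in every library, in CPM after TMM scaling (y axis, from 0), by group (x axis); points are libraries, bars the mean ± SD of 3 libraries, and open diamonds SREBP2 library 1 and SREBP2+EST library 1. The Vector libraries lie above all others for Ccnd2, Ccnd3, Cdk4, Cdk6 and Cdkn1a and below all others for Ccne1, Cdkn1b, Cdkn2c and Cdkn2d, with Vector means of 556 CPM for Ccnd2 and 27.3 CPM for Cdkn1b.

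The first comparison asked what GATA1 activation does to these genes. EST in Vector cells lowered 5 of the 10 (Ccnd2, Ccnd3, Cdk4, Cdk6 and Cdkn1a) and raised 4 (Ccne1, Cdkn1b, Cdkn2c and Cdkn2d). In this comparison 70.6% of all tested genes passed the threshold, 35.2% higher and 35.5% lower, so 9 called of 10 is to be read against a background in which most genes were called. The median log2 fold change was -0.27 over the 10 genes and 0.01 over all genes tested. With 5 genes lower and 4 higher, this median lies between Cdk4 (-0.40) and the uncalled Ccnd1 (-0.14). It does not describe a common fall. Libraries of both groups were apart for 9 of the 10 genes and for 75.7% of all tested genes. The same 9 calls held under all 20 alternatives, including the omission of Vector+EST library 5, where Col1a1 exceeded 1 CPM.

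The second comparison asked what active SREBP2 does in the absence of EST. That may not mean an absence of GATA1 activity. The study reports that overexpressed SREBP2 moved the GATA1 fusion into the nucleus of these cells without EST. The study also reports that SREBP2 largely resembled GATA1 activation in its effects. GATA1 activity in SREBP2 cells was not measured here. The same 5 genes were lower and the same 4 higher, with 71.5% of all tested genes called, 37.7% higher and 33.8% lower. Both comparisons use the same 3 Vector libraries, so the 2 sets of fold changes are not independent of each other. The median was -0.53 over the 10 genes and 0.03 over all tested genes. It lies between Cdk4 (-0.51) and the uncalled Ccnd1 (-0.55) and describes no common fall either. Libraries were apart for 10 of the 10 genes and for 74.8% of all tested genes. The 9 calls held under all 20 alternatives, and Ccnd1 passed in 6 of them. Without both libraries 1, the same 9 genes passed, against 70.7% of all tested genes, with smaller log2 fold changes for the INK4 inhibitors, 0.68 for Cdkn2c and 0.94 for Cdkn2d, and 1.98 for Cdkn1b.

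SREBP2 and EST as single treatments were also set against each other directly, as SREBP2 minus Vector+EST. Of the 10 genes, 2 passed the threshold, against 23.4% of all tested genes. Ccne1 was 1.19-fold lower with SREBP2 than with EST (log2 fold change -0.26 ± 0.05, adjusted p = 0.00181), and Cdkn2c was 1.22-fold lower (-0.28 ± 0.08, adjusted p = 0.0213). The Cdkn2c call was lost without SREBP2 library 3 (adjusted p = 0.0824), SREBP2 library 5 or Vector+EST library 3 (adjusted p = 0.0975). Cdk4 came close (-0.12 ± 0.04, adjusted p = 0.0501) and passed under 5 of 20 alternatives, and Cdkn1a (0.22 ± 0.08, adjusted p = 0.0569) passed under 6 of 20. Cdkn1b was level at 118 CPM in both groups, with a 95% interval of its log2 difference from -0.17 to 0.16. Without both libraries 1, 5 genes passed, against 34.4% of all tested genes. Ccnd2 (0.33 ± 0.04, adjusted p = 8.18e-07) and Cdkn1a (0.32 ± 0.05, adjusted p = 2.13e-05) were then higher with SREBP2, and Ccne1 (-0.20), Cdkn2c (-0.40) and Cdkn2d (-0.41) lower. Among all genes called with every library, 61.7% were higher with SREBP2, but 42.2% were when libraries were scaled by their totals alone.

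With EST present, the comparison of SREBP2+EST with Vector+EST asked whether SREBP2 moves these genes when both groups have GATA1 activated by EST. Only Ccne1 passed, at 234 ± 10.5 against 265 ± 11.5 CPM (SD, n = 3), a log2 fold change of -0.18 ± 0.05 (adjusted p = 0.0212). That is 1 of 10 genes, against 21.9% of all tested genes. Of those called genes 63.7% were higher with SREBP2, but 42.2% were under scaling by library totals. The Ccne1 call was lost without Vector+EST library 1 (adjusted p = 0.0744), without Vector+EST library 5 (adjusted p = 0.0757) and without SREBP2+EST library 2 (adjusted p = 0.0897). A block on library number lost it too, so 4 of 20 alternatives did. Cdk4 had a log2 fold change of -0.12 ± 0.04 (adjusted p = 0.0513), and 9 of 20 alternatives called it. For Ccnd2 the 95% interval ran from -0.08 to 0.35, for Cdkn1b from -0.13 to 0.20 and for Cdk6 from -0.26 to 0.16 on the log2 scale. Without both libraries 1, 3 genes passed, against 30.7% of all tested genes: Ccne1 (-0.18 ± 0.04, adjusted p = 0.00237), Cdk4 (-0.14 ± 0.03, adjusted p = 0.00167) and Cdk6 (-0.14 ± 0.05, adjusted p = 0.0434).

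EST in cells that already carried SREBP2 gave no call with the labelled groups. None of the 10 genes and 0.0% of all 11177 tested genes passed in edgeR's test, while 506 genes (4.53%) had an unadjusted p under 0.05, Ccnd1 among them, and DESeq2 called 12 genes but none of the 10. The 95% intervals of the log2 fold change ran from -0.29 to 0.15 for Ccnd2, from -0.13 to 0.21 for Cdkn1b and from -0.03 to 0.19 for Ccne1. Without both libraries 1, however, 6 of the 10 passed, against 13.9% of all tested genes. Ccnd2 (-0.33 ± 0.04, adjusted p = 3.21e-05), Cdk6 (-0.22 ± 0.06, adjusted p = 0.0139) and Cdkn1a (-0.24 ± 0.05, adjusted p = 0.00381) were then lower with EST, and Cdkn1b (0.20 ± 0.05, adjusted p = 0.0134), Cdkn2c (0.30 ± 0.05, adjusted p = 0.000947) and Cdkn2d (0.49 ± 0.08, adjusted p = 0.000329) higher. Each of these 6 has the sign of its EST effect in Vector cells and a smaller size, and each rests on 2 libraries a group. Both libraries were left out because of their values, so the wider gap arises by construction. The shared sign is therefore no separate support. Col1a1 was at most 0.0542 CPM in the SREBP2 libraries and at least 6.50 CPM in the SREBP2+EST libraries, so EST and whatever brought this transcript cannot be told apart in this comparison.

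**Figure D2:**
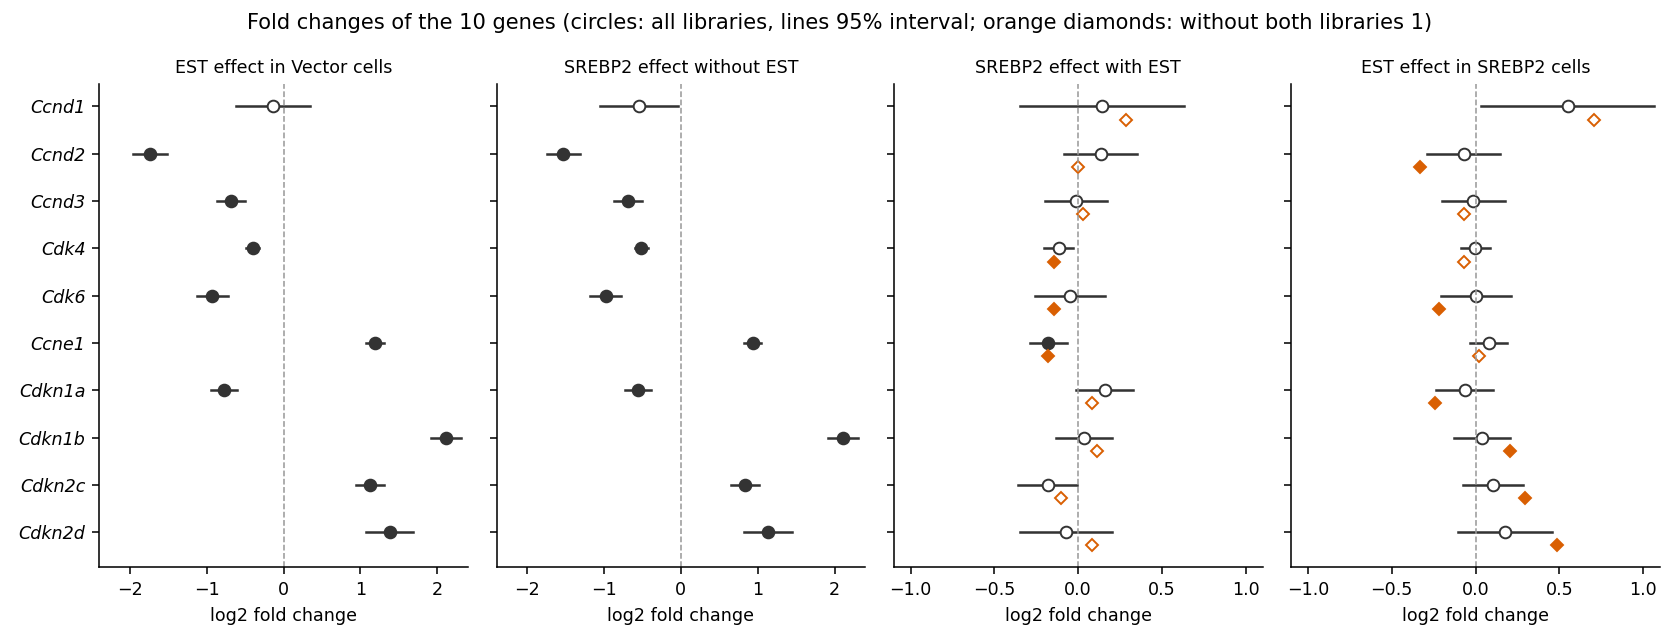
Log2 fold change (x axis) of the 10 genes (y axis) in 4 comparisons, with 95% intervals as lines; circles use all 12 libraries, orange diamonds leave out SREBP2 library 1 and SREBP2+EST library 1, and filled symbols have an adjusted p under 0.05. The x axis of the 2 panels on the right covers a narrower range; there, Ccne1 is the only filled circle (-0.18, SREBP2 effect with EST).

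The interaction, which is the EST effect in SREBP2 cells minus the EST effect in Vector cells, tests directly whether the response to EST differed. It passed for 9 of the 10 genes, against 59.0% of all tested genes. Ccnd2 had the largest positive value (1.67 ± 0.14, adjusted p = 6.37e-08) and Cdkn1b the largest negative value (-2.08 ± 0.12, adjusted p = 6.00e-10). The same 9 passed without both libraries 1, against 57.1% of all tested genes, with 1.44 for Ccnd2 and -1.87 for Cdkn1b. Ccnd1 did not pass (0.69 ± 0.33, adjusted p = 0.0889).

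Summed per kilobase, the balance of activators and inhibitors differed between Vector cells and all other groups. The D-type cyclins together fell from 342 ± 5.91 CPM per kb in Vector (SD, n = 3) to 184 ± 15.8 with EST, 188 ± 24.5 with SREBP2 and 185 ± 16.9 with both. The share of Ccnd2 in that sum was 25.6% ± 0.276 in Vector, 14.3% ± 0.822 with EST, 16.1% ± 0.734 with SREBP2 and 15.6% ± 2.77 with both. Cyclin E1 over D-type cyclins went from 0.170 ± 0.00374 to 0.719 ± 0.0352, 0.592 ± 0.0385 and 0.632 ± 0.0302 in the same order. The INK4 transcripts Cdkn2c and Cdkn2d over Cdk4 and Cdk6 went from 0.140 ± 0.00693 to 0.432 ± 0.0209, 0.389 ± 0.0802 and 0.422 ± 0.0705. Cdkn1b over Cdkn1a went from 0.0928 ± 0.00947 to 0.691 ± 0.0285, 0.603 ± 0.145 and 0.642 ± 0.116. In each of these measures no Vector library overlapped any other library. Except for the share of Ccnd2, that follows from the single genes, whose Vector libraries were already apart, and is no further result. These are ratios of transcripts, and protein amounts were not measured.

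**Figure D3:**
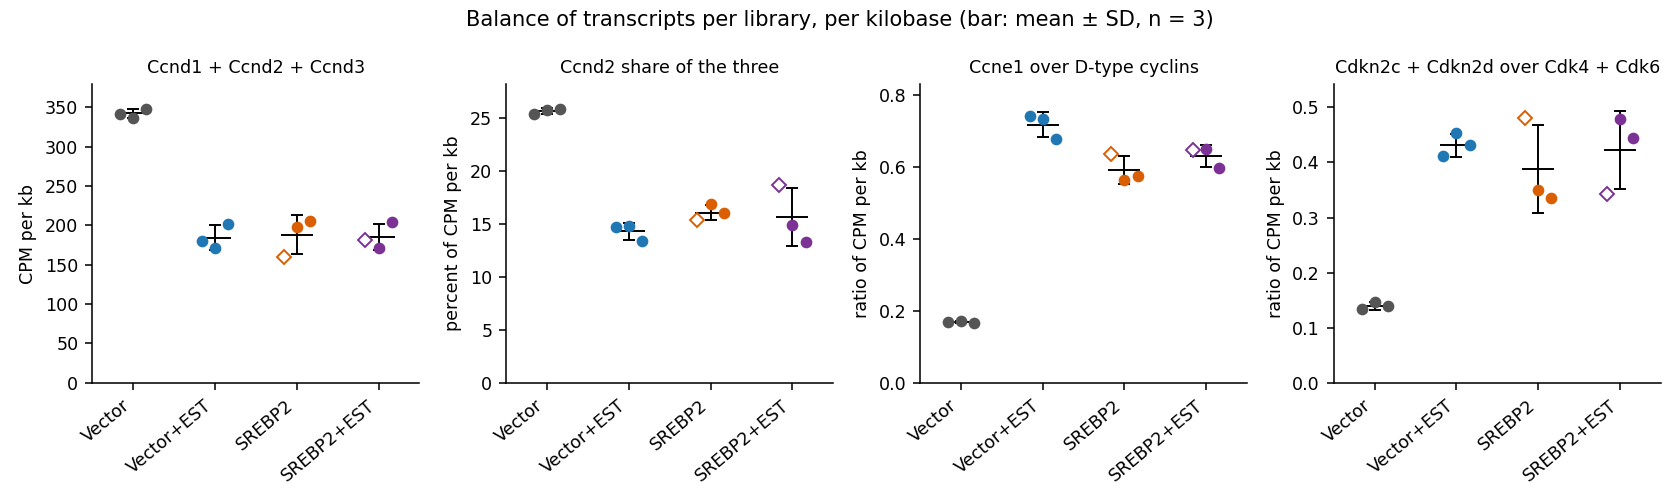
Sums and ratios of transcript levels per kilobase in each library (y axes from 0) by group; points are libraries, bars the mean ± SD of 3 libraries, and open diamonds SREBP2 library 1 and SREBP2+EST library 1. The ratio of Cdkn2c plus Cdkn2d to Cdk4 plus Cdk6 is 0.134 to 0.147 in Vector libraries and 0.336 to 0.481 in the other 9.

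The rest of the pathway was read from lists of other cell cycle genes. Of 13 RB and E2F genes, 5 rose and 6 fell with EST in Vector cells, and 3 rose and 7 fell with SREBP2 (4 and 9 without both libraries 1). Of all tested genes 70.6% were called with EST and 71.5% with SREBP2. E2f2, an activating E2F factor of erythroid progenitors, stood at 99.9 ± 3.39 CPM in Vector and fell to 32.1 ± 2.76 with EST (-1.64 on the log2 scale, adjusted p = 2.01e-12) and 30.9 ± 1.71 with SREBP2 (-1.69, adjusted p = 1.13e-12). E2f7, a repressive E2F, fell from 54.6 ± 4.14 to 28.5 ± 1.75 and 24.4 ± 1.41 CPM. Rbl2, the RB relative p130 of resting cells, rose from 32.5 ± 0.525 to 49.7 ± 0.341 CPM with EST and 45.6 ± 2.72 with SREBP2. Tfdp2, a dimer partner of the E2Fs, rose from 71.1 ± 0.417 to 108 ± 0.945 CPM with EST. Rb1 itself stood at 177 ± 2.16 CPM in Vector, 189 ± 2.2 with EST (adjusted p = 0.116) and 173 ± 14.4 with SREBP2 (adjusted p = 0.571), but without both libraries 1 the change with SREBP2 passed the threshold (-0.14 on the log2 scale, adjusted p = 0.00191). E2f4, a factor that mostly acts in repression, fell from 211 ± 12.6 to 185 ± 8.52 and 175 ± 16.1 CPM, and E2f6, another repressor, rose from 42.1 ± 0.271 to 50.4 ± 4.02 CPM with SREBP2. The list medians were -0.07 with EST and -0.14 with SREBP2.

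Of 14 other cyclins, kinases, inhibitors and regulators of this transition, 13 were tested, of which 2 rose and 9 fell with EST, and 3 rose and 9 fell with SREBP2, also without both libraries 1, with medians of -0.25 and -0.26. Over all tested genes, 35.2% rose and 35.5% fell with EST, and 37.7% rose and 33.8% fell with SREBP2. Ccna2, cyclin A2 of S phase, rose from 392 ± 4.63 to 862 ± 12.2 CPM with EST and 894 ± 11.4 with SREBP2. Cks1b, a kinase subunit, rose from 112 ± 3.56 to 172 ± 5.56 and 163 ± 3.84 CPM. Skp2, the ligase subunit that marks p27 for degradation, fell from 54.4 ± 0.923 to 34.3 ± 3.56 CPM with EST and 32.2 ± 1.99 with SREBP2. Wee1, an inhibitory kinase of CDKs, fell from 68.95 ± 1.21 to 44.7 ± 1.41 CPM with EST. Cdk2 fell from 94.4 ± 4.22 to 72.6 ± 0.949 and 79.1 ± 4.43 CPM, and Ccne2 from 50.1 ± 1.01 to 42.1 ± 2.09 and 33.5 ± 1.28 CPM. So cyclin E2 fell where cyclin E1 rose.

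The remaining inhibitors were scarce. Cdkn2b (p15) stood at 0.887 ± 0.0796 CPM in Vector and at 3 counts or fewer in every Vector+EST and SREBP2 library, so it was at least 5.65-fold lower with EST and at least 5.49-fold lower with SREBP2, taking 3 counts per library as the floor. The list medians are the same with Cdkn2b at these bounds. Cdkn2a lay between 0.209 and 0.593 CPM in every library and passed the test in no comparison. Cdkn1c (p57) had at most 0.108 CPM, under the floor, and was not tested.

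Of a list of 14 genes made up of p53, a known activator of Cdkn1a, and its targets, 13 were tested. With EST 6 rose and 4 fell (median 0.14), and with SREBP2 6 rose and 3 fell (median 0.04), or 6 and 2 without both libraries 1. These counts, too, are near the 70.6% and 71.5% of all tested genes called. Btg2, an antiproliferative p53 target, stood at 29.8 ± 2.13 CPM in Vector and rose to 298 ± 12.6 with EST (3.32 on the log2 scale, adjusted p = 5.46e-16) and 336 ± 13.9 with SREBP2 (3.50, adjusted p = 1.97e-16). Bbc3, the death gene PUMA, fell from 40.7 ± 1.57 to 12.97 ± 0.137 and 15.2 ± 0.873 CPM, and Aen, a nuclease, from 223 ± 5.44 to 144 ± 1.65 and 152 ± 18.5 CPM. Zmat3 rose from 49.9 ± 4.54 to 80.3 ± 3.70 CPM with EST, and Trp53inp1 from 20.1 ± 1.28 to 41.4 ± 0.875 CPM with SREBP2. Trp53 was at 334 ± 12.4 CPM in Vector, 322 ± 16.4 with EST (adjusted p = 0.421) and 343 ± 30.8 with SREBP2 (adjusted p = 0.593). In edgeR's fit without both libraries 1, the change with EST passed the threshold (-0.09 on the log2 scale, adjusted p = 0.0327). Mdm2, the ligase that degrades p53, rose from 73.9 ± 2.51 to 92.97 ± 4.43 and 87.2 ± 2.32 CPM.

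Of 15 S phase genes, 9 fell and 2 rose with EST in Vector cells, and 12 fell and 1 rose with SREBP2 (medians -0.22 and -0.36), or 13 and 1 without both libraries 1. The shares of all tested genes that fell were 35.5% with EST and 33.8% with SREBP2, and those that rose 35.2% and 37.7%. Uhrf1, a partner of maintenance DNA methylation, fell from 305 ± 4.67 to 156 ± 2.13 and 156 ± 21.5 CPM, and Cdt1, which loads the replicative helicase, from 173 ± 5.33 to 106 ± 0.820 and 87.4 ± 11.7 CPM. Cdc6, another loading factor, rose instead from 149 ± 5.19 to 320.2 ± 10.7 and 279 ± 11.4 CPM. Of 10 mitosis genes, 7 rose and 1 fell in both comparisons (medians 0.35 and 0.31), with Top2a going from 514 ± 15.1 to 854 ± 20.5 CPM with EST and 776 ± 57.6 with SREBP2. Bub1, a spindle checkpoint kinase, rose from 88.5 ± 3.26 to 134 ± 5.57 CPM with EST, and Mki67, the proliferation marker Ki-67, from 833 ± 12.1 to 1209 ± 119 CPM with SREBP2. The gene that fell with EST was Cdk1, the mitotic kinase (118 ± 1.98 to 109.6 ± 1.1 CPM, adjusted p = 0.0325), and the one that fell with SREBP2 was Aurkb, a kinase of chromosome segregation (128 ± 5.22 to 116 ± 6.88 CPM, adjusted p = 0.00925).

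SREBP2 in the presence of EST lowered 13 of the 15 S phase genes and raised none (median -0.26, against -0.00477 over all tested genes). Of all tested genes, 7.94% were lower. That background depends on the processing, with 888 of 11177 genes lower here, 1768 under library totals and 203 with a block on library number. The S phase genes were not counted under these 2 alternatives. Slbp, the histone mRNA binding protein, was 157 ± 4.14 CPM without and 126 ± 7.58 CPM with SREBP2 (-0.32 on the log2 scale, adjusted p = 5.52e-05). All 15 were lower without both libraries 1, against 14.0% of all tested genes lower and 30.7% called in either direction. Of the megakaryocyte markers, Pf4 moved in the same comparison, from at most 6.59 to at least 41.2 CPM, and Itga2b and Gp9 did not pass. Pdgfrb was at most 0.159 CPM in Vector+EST and 5.01 to 9.15 CPM in SREBP2+EST, and Cpa3, a mast cell protease, 1.80 to 2.30 against 3.28 to 3.45 CPM. The part of Pf4, Pdgfrb and Cpa3 in these results was not tested. Col1a1 was listed at 0 in Vector+EST libraries 1 and 3 and at 13.4 CPM in Vector+EST library 5, against 6.50 to 13.8 CPM in the SREBP2+EST libraries, so these groups overlapped in it. The RB and E2F list had 4 lower and 0 higher (8 and 0 without both libraries 1), with Rbl1 falling from 105 ± 3.67 to 84.2 ± 3.43 CPM and Tfdp2 from 108 ± 0.945 to 87.8 ± 6.17 CPM. The other cyclins, kinases and regulators were split, with 2 higher (Fbxw7 by 0.23 and Ccna2 by 0.09 on the log2 scale) and 2 lower (Ccne2 by -0.38 and Skp2 by -0.25). Of the p53 list 3 were higher, among them Trp53inp1 (0.89) and Gadd45a (0.50), and 2 lower, among them Mdm2 (-0.13). No mitosis gene passed in edgeR's test, with 2 lower ones without both libraries 1. These counts stand against 21.9% of all tested genes called with every library.

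**Figure D4:**
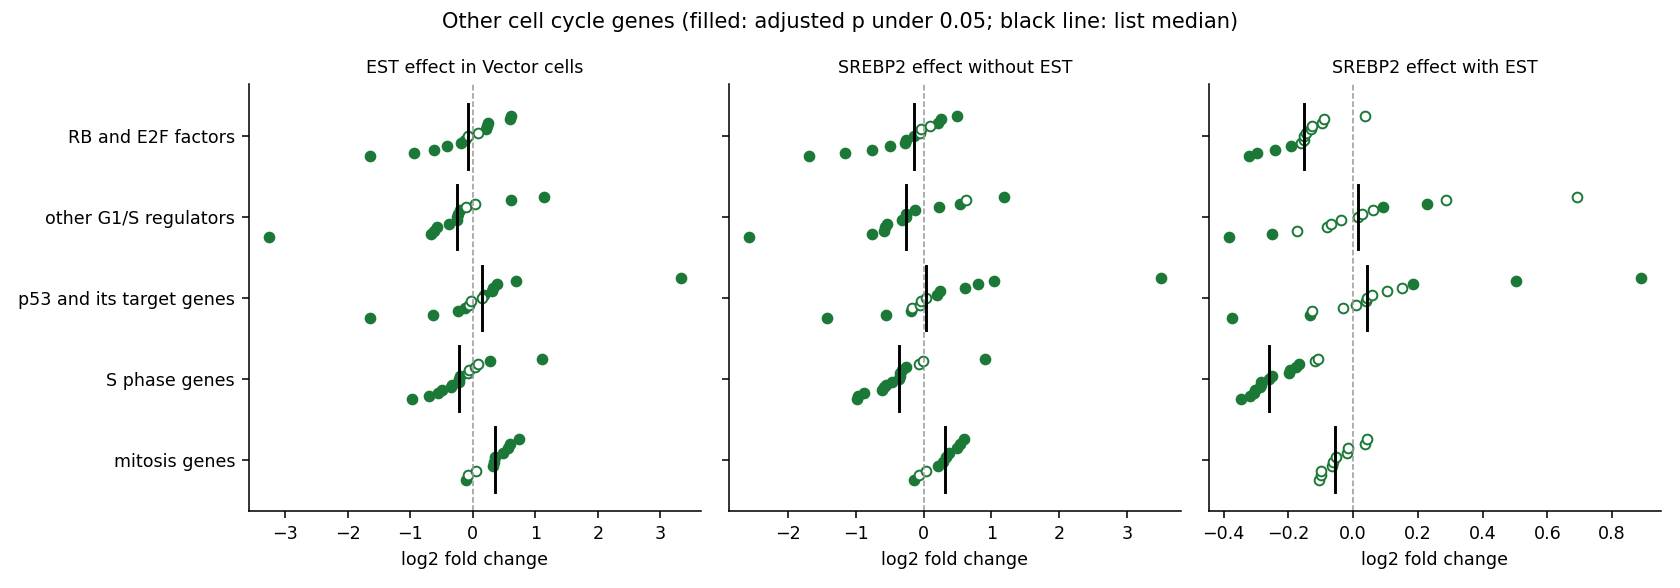
Log2 fold change (x axis, a separate range in each panel) of the other cell cycle genes by list (y axis) in 3 comparisons; filled points have an adjusted p under 0.05 and black lines are list medians. In the right panel 13 of the 15 S phase genes are filled and lie below 0; the point at the far left of the list of other G1/S regulators in the first 2 panels is Cdkn2b, whose treated libraries hold 3 counts or fewer.

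For the 3 genes whose group means ranged widest, the genes outside the list with the most similar profile over the 12 libraries were found among 8545 genes by Pearson's r of log2 CPM, which is a description, since the 3 Vector libraries against the other 9 set most of it. For Cdkn1b they were Leprot (r = 0.998; 108 CPM in Vector and 189, 193 and 195 in Vector+EST, SREBP2 and SREBP2+EST) and Zbtb8b (r = 0.998; 4.62 and 37.4, 36.9 and 38.3 CPM). For Ccnd2 they were Septin8 (r = 0.999; 511 and 310.4, 324 and 317 CPM) and Def6 (r = 0.998; 149 and 44.3, 49.1 and 47.6 CPM). For Cdkn2d they were Pcmtd2 (r = 0.991; 38.0 and 72.8, 67.6 and 70.1 CPM) and Chchd7 (r = 0.989; 33.4 and 79.7, 70.3 and 74.6 CPM).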

How the data were processed

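Oligo(dT)-selected RNA of 12 libraries, 3 in each of 4 groups, was sequenced by the authors as single-end reads on a BGISEQ-500. The deposited table holds estimated counts per gene, of which 66.5% were whole numbers. The submitters' processing notes name HISAT2 2.0.4, Bowtie2 2.2.5, RSEM 1.2.12, DESeq2 1.4.5 and GRCm38.p6, without their roles. A table of the authors' own comparisons, with log2 fold changes and p-values, was not used. Counts were rounded and tested with edgeR 4.0.16 in R 4.3.3 (TMM scaling, filterByExpr, quasi-likelihood F-test, all 12 libraries, 1 mean per group), which kept 11177 genes and left out 6033. P-values were Benjamini-Hochberg adjusted over all genes tested, with a threshold of 0.05, and the SE is the log2 fold change over the root of F. CPM values are TMM-scaled.

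The test was checked on simulated data. Depth is given by 3 counts as a floor, for counting error only. Alternatives were RLE scaling, library totals, no filter, at least 10 counts in every library, a block on library number, each library left out, both libraries numbered 1 of the SREBP2 groups left out, only the libraries compared, and DESeq2 1.42.0. Starts and ends of genes follow RefSeq (GRCm38.p6). Strands, transcript lengths and exon overlaps follow GENCODE M21 (GRCm38). The genes and lists were chosen with earlier results of these data known. Other genes were named by rule: per list and comparison, up to 2 called genes that rose most and 2 that fell most, where the mean log2 CPM reached 3, and, at any value, Rb1, E2f2, E2f4, Trp53, Mdm2, Ccne2, Cdk2, Cdkn1c, Cdkn2a and Cdkn2b. A gene that this rule names is not reported here. Likeness was sought for the 3 genes with the widest span of group means.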

Additional observations from a re-analysis of the deposited data

Results flagged for a closer look

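The response to EST differed between SREBP2 and Vector cells for 9 of the 10 genes, by the test of the interaction in edgeR, against 59.0% of all tested genes. As the EST effect in SREBP2 cells minus that in Vector cells on the log2 scale, the difference was positive for the genes that EST lowered in Vector cells: 1.67 ± 0.14 (SE) for Ccnd2, 0.67 ± 0.12 for Ccnd3, 0.40 ± 0.06 for Cdk4, 0.93 ± 0.14 for Cdk6 and 0.72 ± 0.11 for Cdkn1a. It was negative for the genes that EST raised there: -1.11 ± 0.07 for Ccne1, -2.08 ± 0.12 for Cdkn1b, -1.02 ± 0.12 for Cdkn2c and -1.20 ± 0.19 for Cdkn2d. The EST effects in SREBP2 cells were small for these 9 genes, from -0.07 for Ccnd2 to 0.18 for Cdkn2d. The differences are therefore close to the effects in Vector cells with the sign turned, and the pattern of signs follows from that. Adjusted p-values ran from 6.00e-10 for Cdkn1b to 0.000191 for Ccnd3. Without SREBP2 library 1 and SREBP2+EST library 1 the difference was smaller for 8 of these 9 genes, among them Cdkn2d at -0.86 and Cdkn2c at -0.79, and Ccne1 stood at -1.13.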

How the results depend on the processing

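With EST in Vector cells and with SREBP2 alone, all 9 called genes kept direction and call in all 20 alternatives, and in the interaction they did so in all 19. The other comparisons depended on the processing, and for the values below the cause was not tested. For SREBP2 with EST, the count of 1 became 2 with RLE scaling, library totals, at least 10 counts, only the libraries compared and DESeq2, 3 without both libraries 1, and 0 to 3 when single libraries were left out. Over all tested genes, the share called was 21.9% as reported, 21.5% to 27.4% in those 5 alternatives, 30.7% without both libraries 1 and 15.6% to 27.2% without single libraries. For EST in SREBP2 cells, 6 of the 10 genes and 1567 of all genes passed without both libraries 1, 22 genes without a filter, 8 with only the libraries compared, 12 with DESeq2 and 0 to 18 with single libraries left out, 18 without Vector+EST library 5. For SREBP2 minus EST as single treatments, 5 passed without both libraries 1 and 1 to 5 with single libraries left out: 5 without SREBP2 library 1, 4 without SREBP2+EST library 1, and 1 without SREBP2 library 3 or Vector+EST library 3. Over all tested genes, 34.4% were called without both libraries 1 and 16.6% to 28.5% without single libraries. Without SREBP2 library 5, Cdkn2c missed the threshold too.

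A block on library number served as a check of pairing. Correlations of deviations over 13 same-numbered pairs ran from -0.17 to 0.067. The lowest belonged to SREBP2 library 1 and SREBP2+EST library 1. These values gave no sign of pairing by number, but deviations from means of 3 libraries cannot exclude it. With the block, SREBP2 with EST called 0 of the 10 genes and 1208 of all genes instead of 2448 (10.8% instead of 21.9%). Log2 fold changes that turned sign under the block were 0.0404 for Ccnd1 (EST in Vector cells). For SREBP2 with EST they were -0.0913 for Ccnd1, 0.0225 for Ccnd3, 0.0244 for Cdk6 and -0.0312 for Cdkn1b. For EST in SREBP2 cells they were 0.0410 for Ccnd2, 0.0268 for Ccnd3, 0.00483 for Cdk4, -0.0250 for Cdkn1b and -0.00859 for Cdkn2d.

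Other sign changes were small, and 1 of all 56 passed the threshold: Cdk6 at -0.217 for EST in SREBP2 cells without both libraries 1 (adjusted p = 0.0139). Without both libraries 1, SREBP2 with EST gave 0.0256 for Ccnd3 and 0.0810 for Cdkn2d, and the single treatments gave 0.0935 for Ccnd3 and 0.0742 for Cdk6. For EST in SREBP2 cells, Cdk6 was -0.00436 with RLE scaling and -0.00459 with DESeq2, and Cdk4 was 0.00261 without a filter. Cdkn1b was -0.0106 for SREBP2 with EST under library totals. With at least 10 counts, the single treatments gave 0.00329 for Ccnd3 and 0.00304 for Cdkn1b.

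Leaving out single libraries gave these ranges of log2 fold change for genes whose sign turned. SREBP2 with EST gave -0.0595 to 0.284 for Ccnd1, -0.111 to 0.0635 for Ccnd3, -0.141 to 0.0101 for Cdk6, -0.00828 to 0.111 for Cdkn1b and -0.187 to 0.0825 for Cdkn2d. EST in SREBP2 cells gave -0.203 to 0.00716 for Ccnd2, -0.112 to 0.0590 for Ccnd3, -0.0438 to 0.0330 for Cdk4, -0.127 to 0.0806 for Cdk6, -0.165 to 0.0283 for Cdkn1a and -0.0200 to 0.126 for Cdkn1b. The single treatments gave -0.0737 to 0.0967 for Ccnd3, -0.130 to 0.0773 for Cdk6 and -0.0919 to 0.0538 for Cdkn1b. Depth limits Ccnd1, at 17 to 32 counts per library, and the scarce inhibitors.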
